A study of Mus musculus with 8 samples.

Results

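Genes for 9 receptors that hold blood-forming cells in a tissue or steer them between tissues were followed through 6 single-cell count matrices of mouse neonatal and late fetal blood cells. They are Cxcr4, S1pr1, Itga4, Itga6, Itgb1, Itgal, Itgb2, Cd44 and Selplg, taken by name, 9 of 32285 genes in the matrices. They were read in 37147 cells kept for at least 1000 genes, at least 2000 unique molecular identifiers (UMIs) and at most 10% mitochondrial UMIs. Tppp3CreER LSLTdTomato pups (2 animals), in which Tppp3 sequences drive a tamoxifen-inducible Cre that switches on tdTomato, were given tamoxifen at postnatal day 0 (P0) and taken at postnatal day 2 (P2). Their marrow and spleen cells carried hashtags 1 to 4 for pup and tissue and were run in 2 tubes, each with the tdTomato-positive cells of 1 pup and the tdTomato-negative cells of the other. Organs of 7 wild-type P2 mice were merged into 3 pools (marrow, liver and spleen) of 1 library each, and a wild-type library at embryonic day 19 (E19) has no stated number of embryos. All cells were sorted as Epcr+ Lin- Sca-1+ Kit+, so the groups share that gate. The E19 library is named bone marrow in its title and fetal liver in its tissue field, and it is called E19 here. The pools, the E19 library and the pups were batches 1, 2 and 3 in the labels.

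CXCR4 is the receptor for CXCL12 and retains stem and progenitor cells near the marrow stroma, while S1PR1 senses sphingosine-1-phosphate and draws lymphocytes and some progenitors out of tissue into blood or lymph. The integrin chains work in pairs: alpha 4 with beta 1 (VLA-4, which binds VCAM-1 and fibronectin), alpha 6 with beta 1 (a laminin receptor), and alpha L with beta 2 (LFA-1, which binds ICAM-1). CD44 binds hyaluronan, and PSGL-1, the product of Selplg, is the main selectin ligand of blood cells.

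Cells were placed in classes by marker lists, none of which held a member: a class needed at least 3 of its markers with a UMI and no other list close behind. Despite the sort, stem-gated cells were 2.15% to 62.4% of a library, and B-lineage, erythroid, granulocyte-progenitor, monocyte and dendritic, and T and NK cells were also present. The stem-gated cells numbered 1503 in tube 1 and 941 in tube 2, against 1132 in the pooled P2 marrow, 121 in liver, 1236 in spleen and 6691 at E19. Values given for a pup are of tdTomato-negative cells with a hashtag call, pup 1 from tube 2 and pup 2 from tube 1. In the tubes, 1663 kept cells had no such call. The 3 sort genes Procr, Kit and Ly6a were seen in every stem-gated sum described here, and at least 11 of the 12 stem markers were. Procr is itself among the 12 markers used for the gate, so only Kit and Ly6a were seen independently of it. Cells with lists too close to tell apart were 17.5% to 42.0% of a library, those led by no list were 0.514% to 5.86%, and neither entered a class. Median depth of kept cells was 20120 and 20492 UMIs in the tubes and 6523 to 8275 in the other libraries. Pairs of libraries shared at most 34 cell barcodes, 0.379% of the smaller library or less, and the tubes shared none with the other 4 libraries. Levels are CPM, the share of a gene's UMIs among all UMIs of the class on the standard CPM scale. Each UMI stands for 1 captured 3′ end, so levels were not divided by gene length. Intervals in brackets are exact 95% Poisson or binomial intervals, which cover counting error only.

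RefSeq promoters (GRCm38.p6) were at hand for 4 of the 9 genes (Cxcr4, Itga4, Itgb1 and Cd44). The 250 bases before the start of 3 of them are shown because Cxcr4 was the lowest member in the wild-type stem-gated cells and Itga4 and Itgb1 were the highest. Capitals mark 3 motifs on either strand. The GC box, bound by factors of the SP family, was searched as GGGCGG. The palindrome bound by the factor NRF1 was searched as GCGCATGCGC. The TATA box, which positions the start of transcription in some promoters, was searched as TATAAA.
Cxcr4, chr1:128592300-128592549, minus strand: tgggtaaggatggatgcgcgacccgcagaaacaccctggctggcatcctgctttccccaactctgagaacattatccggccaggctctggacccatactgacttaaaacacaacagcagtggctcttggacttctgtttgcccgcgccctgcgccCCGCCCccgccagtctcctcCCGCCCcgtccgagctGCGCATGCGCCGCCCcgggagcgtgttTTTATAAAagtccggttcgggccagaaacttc
Itga4, chr2:79255176-79255425, plus strand: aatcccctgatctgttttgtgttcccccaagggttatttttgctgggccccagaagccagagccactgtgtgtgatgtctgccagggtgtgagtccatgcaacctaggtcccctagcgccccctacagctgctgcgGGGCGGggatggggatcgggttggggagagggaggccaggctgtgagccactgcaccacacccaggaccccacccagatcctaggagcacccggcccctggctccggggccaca
Itgb1, chr8:128685404-128685653, plus strand: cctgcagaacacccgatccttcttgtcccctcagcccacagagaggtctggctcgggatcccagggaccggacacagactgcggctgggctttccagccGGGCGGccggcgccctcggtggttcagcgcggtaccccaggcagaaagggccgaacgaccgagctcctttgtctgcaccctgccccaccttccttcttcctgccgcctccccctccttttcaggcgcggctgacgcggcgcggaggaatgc
The Cxcr4 stretch held 3 GC boxes, the NRF1 palindrome (which overlaps the last GC box by its final base) and a TATA box read on both strands, while the Itga4 and Itgb1 stretches held 1 GC box each. Of 32851 RefSeq promoter stretches of the same length, 32.7% held the GC box, 12.4% the TATA box and 0.782% the NRF1 palindrome. A match describes these letters and was not tested as a site.

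Itga4, Itgb1 and Cd44 had the 3 highest CPM levels of the 9 genes in each of the stem-gated sums. Itga4 (chr2:79255426-79333123, mm10) stood at 470, 368 and 236 CPM in the P2 marrow of pup 1, pup 2 and the pool, against 374, 303 and 217 CPM in their spleens. Itgb1 (chr8:128685654-128733200) stood at 179, 212 and 230 CPM in the same marrow sums and at 219, 207 and 263 CPM in the spleens. Itga4 was higher in marrow than spleen within each of the 3 sources, but the marrow and spleen ranges overlapped, and Itgb1 differed in direction between sources.

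The laminin-receptor chain Itga6 (chr2:71745616-71858416) reached 106, 96.1 and 75.9 CPM in the marrow of pup 1, pup 2 and the pool, against 85.4, 87.0 and 66.3 CPM in the spleens. Cd44 (chr2:102811141-102901665) reached 194, 189 and 117 CPM in marrow, against 177, 166 and 110 CPM in spleen. Selplg (chr5:113818536-113832644) stood at 85.5, 66.2 and 52.8 CPM in marrow, against 71.1, 60.1 and 52.3 CPM in spleen. For these 3 genes the marrow value was the higher one in 3 of 3 sources, and the marrow and spleen ranges overlapped.

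The LFA-1 chains were scarce. Itgal (chr7:127296260-127335138) stood at 24.5, 39.4 and 22.3 CPM in marrow, against 35.7, 39.8 and 24.3 CPM in spleen, and Itgb2 (chr10:77530252-77565708) at 32.0, 23.6 and 20.7 CPM in marrow, against 25.2, 22.4 and 21.0 CPM in spleen. S1pr1 (chr3:115710433-115715072) stood at 13.4, 19.5 and 18.3 CPM in marrow, against 16.5, 12.1 and 19.4 CPM in spleen. Cxcr4 (chr1:128588199-128592293) stood at 40.2, 22.6 and 4.46 CPM in marrow, against 25.0, 21.9 and 4.32 CPM in spleen. The tissues overlapped for all 4 genes, as for the other 5, where 2.9% of all tested genes had every marrow sum above every spleen sum and 1.11% below, and the pup 1 marrow values rest on 60 cells.

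**Figure D1:**
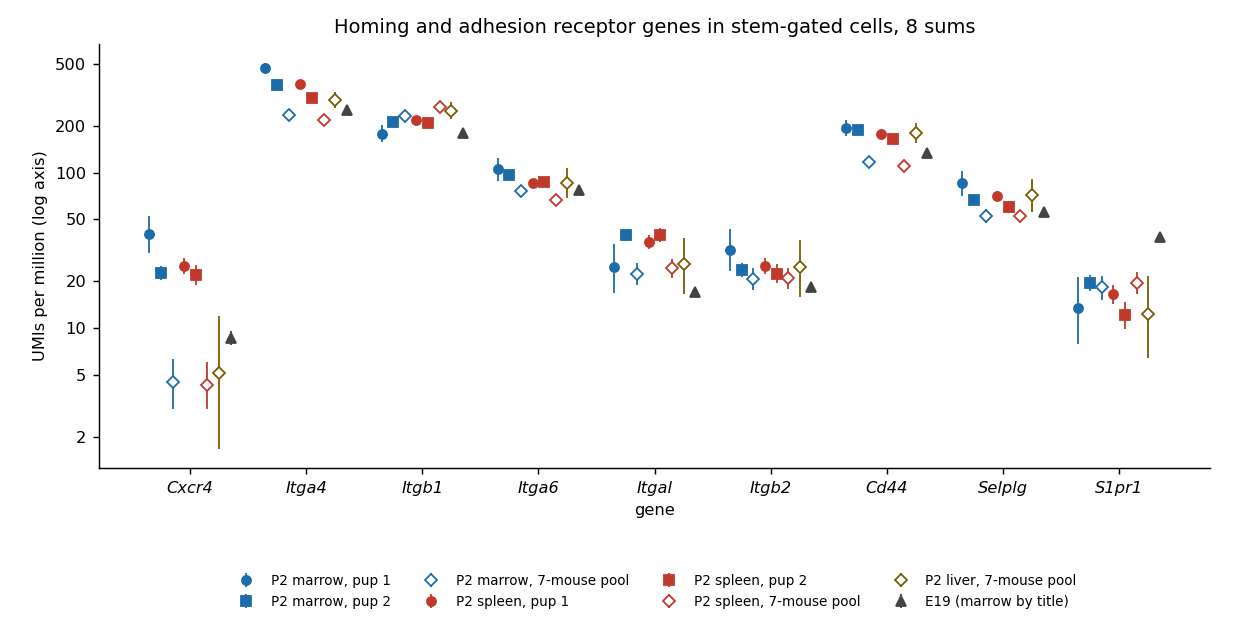
Levels of the 9 genes in stem-gated cells (CPM, log axis) in 8 sums: P2 marrow and spleen of pup 1, pup 2 and the 7-mouse pool, pooled P2 liver, and E19. Points are the levels and bars 95% counting intervals. Marrow and spleen points overlap for every gene, the 4 pup points of Cxcr4 (21.9 to 40.2) lie above the 3 pool points (4.32 to 5.14), and the E19 point of S1pr1 (38.3) lies above the other 7.

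No member passed the test between P2 marrow and spleen. The fit was edgeR's quasi-likelihood test on 3 marrow and 3 spleen sums with batch as a term, over all genes that passed its filter on low counts, with Benjamini-Hochberg adjustment. It called 0 of 13434 genes (0%), with 436 at an unadjusted p under 0.05. DESeq2 called 5 genes higher and 1 lower. The 9 member estimates, as log2 fold changes of marrow over spleen, ran from -0.20 (Itgb1, SE 0.10) to 0.18 (Itga4, SE 0.12), each with an adjusted p of 1.00. With the animal source as a block in place of batch, the same tool called 13 genes higher and 3 lower, none of them a member. That blocked fit had 1028 genes at an unadjusted p under 0.05, against 436 in the main fit. The main fit has no term for the animal source, so it leaves out that marrow and spleen sums of a source share animals. The 2 pups are separate animals, and each pool joins 7 mice, so the p-values measure the spread between these sums.

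The wider homing and adhesion list, 103 genes of which 102 were in the matrices, was described the same way. In marrow over spleen, 81 of them were tested, 0 were called, and their median log2 fold change was 0.02, beside -0.01 over all genes tested. VCAM-1 is the main ligand of VLA-4, and its gene Vcam1 averaged 0.14 CPM in marrow stem-gated sums and 2.92 CPM in spleen sums, with an edgeR adjusted p of 0.316. It was not called and was named after its values were seen.

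Stem-gated cells of the pooled P2 liver had a higher Cd44 level in CPM than those of the other 2 pools. Cd44 stood at 181 CPM (155 to 210) in liver, against 117 CPM (109 to 125) in marrow and 110 CPM (102 to 117) in spleen, a liver-to-marrow ratio of 1.55 (1.31 to 1.82). The share of cells with a Cd44 UMI did not separate the pools after thinning to 5000 UMIs. It was 48.1% (38.2 to 58.1) in liver, 43.6% (39.8 to 47.4) in marrow and 41.6% (38.2 to 45.1) in spleen, with overlapping intervals. Neutrophil markers summed to 23.6 CPM in liver stem-gated cells (5 of 8 at 0 UMIs), against 7.62 CPM in marrow and 7.11 CPM in spleen (3 of 8 at 0 in each), and their part in the Cd44 value was not tested. Itga4 stood at 295 CPM in liver, against 236 CPM in marrow (ratio 1.25, 1.10 to 1.42), and Selplg at 72.0 CPM against 52.8 CPM (ratio 1.36, 1.04 to 1.77). The ratio intervals of Itgb1, Itga6, Itgal, Itgb2 and S1pr1 between liver and marrow included 1, and Cxcr4 had 5 UMIs in the liver sum. None of the 8 members with at least 10 CPM in either library passed 2-fold, where 3.21% of all such genes did. There is 1 liver library with 121 stem-gated cells, so these are differences between libraries with no test. Without cells showing 2 or more of 10 mitotic genes, the liver-to-marrow log2 ratio of Cd44 was 0.92, and that of S1pr1 was -2.21 against -0.57 with them, so that 1 member was past 2-fold.

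In the wider list, 3 of the 63 genes at 10 CPM or more were past 2-fold higher in liver than marrow stem-gated cells and 1 lower, with a median log2 ratio of 0.10 beside 0.08 over all such genes. Alcam, an adhesion molecule of the immunoglobulin family, stood at 117 CPM in liver, against 52.3 CPM in marrow. Selp (P-selectin) stood at 25.7 CPM against 12.1 CPM, and Itgam (the alpha M integrin chain) at 23.6 CPM against 11.4 CPM. Cd69, whose product holds S1PR1 inside lymphocytes, had 0 UMIs in liver stem-gated cells, against 94 UMIs or 13.5 CPM in marrow. At this depth 0 UMIs allow up to 3.79 CPM (95% upper limit).

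Between the pooled P2 marrow and E19, S1pr1 was the member with the ratio farthest from 1. It stood at 18.3 CPM (15.2 to 21.7) in the pooled P2 marrow, against 38.3 CPM (36.5 to 40.2) at E19, a P2-to-E19 ratio of 0.476 (0.395 to 0.571). The E19 value lay above those of all 7 P2 sums, which ran from 12.1 to 19.5 CPM. It was the 1 member of 8 past 2-fold, where 4.78% of all genes at 10 CPM or more were (2.96% in the same direction). In cells thinned to 5000 UMIs, S1pr1 had a UMI in 6.65% (4.89 to 8.79) of P2 marrow stem-gated cells, against 15.8% (14.8 to 16.9) at E19. Unthinned, the shares were 10.5% at P2 and 20.5% at E19, at median depths of 5608.5 and 5927 UMIs. Erythroid-gated cells showed 0% to 1.15% after thinning.

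The other members had ratios nearer to 1 between pooled P2 marrow and E19. Itgb1 stood at 230 CPM in P2 marrow, against 181 CPM at E19 (ratio 1.27, 1.20 to 1.34), and Itgal at 22.3 CPM against 17.0 CPM (ratio 1.31, 1.10 to 1.56). Cd44 stood at 117 CPM in P2 marrow, against 134 CPM at E19 (ratio 0.872, 0.810 to 0.939). Cxcr4 stood at 4.46 CPM (3.03 to 6.32) in P2 marrow, against 8.62 CPM (7.78 to 9.53) at E19, under the 10 CPM needed to count. Itga4 stood at 236 CPM against 253 CPM (ratio 0.932, 0.884 to 0.981), and Itga6, Itgb2 and Selplg had ratio intervals that included 1. With pup 2 marrow in place of the pool, S1pr1 had a ratio of 0.509 (0.447 to 0.577) over E19 and the other 8 members were higher than at E19. Cxcr4 then stood at 22.6 CPM in pup 2 marrow, against 8.62 CPM at E19 (ratio 2.62, 2.26 to 3.05), and Itgal at 39.4 CPM against 17.0 CPM (ratio 2.32, 2.08 to 2.59). The directions of Cxcr4, Cd44 (ratio 1.41) and Itga4 (ratio 1.45) were opposite to those with the pool, while S1pr1 was below E19 with both. Stage, batch and tissue cannot be told apart, since E19 is 1 library of its own batch with 2 tissue labels, and mitotic genes differed too: 45.1% of P2 marrow and 28.5% of E19 stem-gated cells showed 2 or more. Without those cells the S1pr1 log2 ratio was -1.02, against -1.07 with them.

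Klf2, Rgs2 and Fut7 of the wider list differed by more than 2-fold between P2 and E19 stem-gated cells as well. Klf2, a transcription factor that drives S1pr1 in lymphocytes, stood at 8.91 CPM in P2 marrow, against 38.2 CPM at E19, and at 4.46 to 16.4 CPM in the other 6 P2 sums. Rgs2, a regulator of G-protein signalling, stood at 46.9 CPM in P2 marrow, against 112 CPM at E19. Fut7, which makes selectin ligands, ran the other way, at 12.8 CPM in P2 marrow, against 6.27 CPM at E19. Of 63 wider-list genes at 10 CPM or more, 3 were past 2-fold higher in P2 marrow (Itgb7 and Fut7 among them) and 4 lower (Klf2, Rgs2, F11r and Itga9). Their median log2 ratio was 0.01, beside 0.05 over all such genes.

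Cxcr4 separated the pups from the pools in the stem-gated cells of both tissues. It stood at 40.2 and 22.6 CPM in the marrow of pups 1 and 2, against 4.46 CPM in pooled marrow, ratios of 9.01 (5.69 to 14.5) and 5.08 (3.51 to 7.59). In spleen it stood at 25.0 and 21.9 CPM in pups 1 and 2, against 4.32 CPM in the pool, ratios of 5.78 (4.04 to 8.51) and 5.08 (3.51 to 7.54). In all 4 comparisons it was the 1 member of 9 past 2-fold, where 10.7%, 3.27%, 5.29% and 4.35% of all genes at 10 CPM or more were, in that order.

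In tube 2, Cxcr4 was also above pooled marrow in erythroid-gated and granulocyte-progenitor-gated cells. In erythroid-gated cells it stood at 22.5 CPM (18.7 to 26.9) in tube 2, against 3.84 CPM (2.66 to 5.37) in pooled marrow, and in granulocyte-progenitor-gated cells at 86.2 CPM (69.6 to 106) against 7.62 CPM (6.46 to 8.93). The tube 2 values rest on 132 and 23 cells and the pooled marrow values on 738 and 1355. Itgb2 was also past 2-fold in the granulocyte-progenitor-gated cells, at 36.2 CPM against 12.7 CPM (ratio 2.85, 1.98 to 4.00). Tube 2 joins marrow and spleen cells of both pups, and 1 of 6 and 2 of 8 members were past 2-fold there, where 4.25% and 12.3% of all genes were. By hashtag, 3 of its erythroid-gated cells were placed, in pup 1 spleen. Of its granulocyte-progenitor-gated cells, 14 were placed in pup 1 spleen and 2 in pup 1 marrow, so tissue was not matched. In B-lineage-gated cells of pup 1 spleen Cxcr4 stood at 10.6 CPM (3.45 to 24.8, 5 UMIs), an interval that holds the pooled spleen value of 6.17 CPM. Itga4 and Cd44 were higher in the pups' stem-gated cells too, with ratios of 1.40 to 1.99 and 1.51 to 1.66 over the pool of the same tissue. The median gene shifted by 0.18 to 0.27 on the log2 scale in these 4 comparisons. In the wider list, Cdh2 (N-cadherin, a cell-to-cell adhesion molecule) stood at 13.4 to 16.5 CPM in the 4 pup sums, against 1.01 and 1.02 CPM in pooled marrow and spleen. Genotype, tamoxifen, batch, depth and the software version in the file headers all differ between pups and pools. So does the choice of tdTomato-negative cells with a hashtag call, and these cannot be told apart. Neutrophil markers, of the class with the highest Cxcr4 here, summed to 66.9 and 77.4 CPM in the stem-gated marrow and spleen sums of pup 1, to 7.03 and 6.81 CPM in those of pup 2 and to 7.62 and 7.11 CPM in the pools. Of the 8 neutrophil markers, 0 to 2 were at 0 UMIs in the pup sums and 3 in each of these pools. Globin genes, read as free RNA, summed to 12.6 to 78.1 CPM in the 4 pup sums, against 836 and 553 CPM in pooled marrow and spleen. Granulocyte-progenitor markers summed to 58.4 to 102 CPM in the pup sums, against 299 and 230 CPM in the pools, and 55.0% to 69.1% of the pups' stem-gated cells showed 2 or more mitotic genes, against 45.1% and 43.6% in the pools. The part of these in the Cxcr4 difference was not tested.

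Against B-lineage-gated cells, stem-gated cells were richer in the alpha 6 and beta 1 integrin chains and Cd44 and poorer in Cxcr4 and the alpha 4 chain. Classes were compared in edgeR with library as a term over the 5 libraries with at least 20 cells of both (pooled P2 marrow, liver and spleen, E19 and tube 2), of which the 3 pools come from the same 7 mice. Itga6 averaged 79.3 ± 9.54 CPM in stem-gated and 33.1 ± 10.6 CPM in B-lineage-gated cells (SD, n = 5), a log2 fold change of 1.10 (SE 0.15, edgeR adjusted p = 0.000605). Itgb1 averaged 229 ± 31.7 CPM in stem-gated and 110 ± 19.4 CPM in B-lineage-gated cells, a log2 fold change of 0.85 (SE 0.12, edgeR adjusted p = 0.000787). For both genes, and for Cd44 (147 against 78.5 CPM), every stem-gated sum lay above every B-lineage-gated sum, as for 23.6% of all genes. Cxcr4 averaged 9.63 ± 9.10 CPM in stem-gated and 20.04 ± 11.03 CPM in B-lineage-gated cells and was lower in 5 of 5 libraries, by 1.35 on the log2 scale (SE 0.27, edgeR adjusted p = 0.00400).

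In all, 3 members were higher and 4 lower in stem-gated than B-lineage-gated cells (Itga4, Itgal and Selplg beside Cxcr4), while the test called 47.6% of all genes, 25.7% higher and 21.9% lower. Itgb2 (log2 fold change 0.28) and S1pr1 (-1.32) were not called, with edgeR adjusted p of 0.360 and 0.0660. With library totals in place of TMM factors, the median gene shifted to 0.26 on the log2 scale and Itgal and Selplg lost their call (edgeR adjusted p of 0.0762 and 0.199). Selplg also lost it without P2 marrow, P2 liver or E19, with log2 fold changes of -0.40, -0.50 and -0.51. S1pr1 gained it without P2 marrow or E19, at -1.71 and -1.82. Without cells showing 2 or more mitotic genes S1pr1 was called at -2.51, and Cxcr4 and Selplg lost their call at -1.22 and -0.68 (edgeR adjusted p of 0.0533 and 0.0690). That fit also lacked E19, which had too few cells left.

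Of the 9 receptor genes, 5 were called higher in stem-gated than in erythroid-gated cells. Itgal averaged 25.1 ± 7.099 CPM in stem-gated and 2.90 ± 0.625 CPM in erythroid-gated cells (SD, n = 5), and Itgb2 22.1 ± 2.99 CPM against 3.46 ± 0.846 CPM. Itga6 averaged 79.3 against 8.55 CPM, Selplg 60.6 against 10.9 CPM and S1pr1 21.3 against 2.11 CPM. In each of the 5 genes every stem-gated sum lay above every erythroid-gated sum, as for 43% of all genes, with log2 fold changes from 1.96 (Selplg, SE 0.14) to 2.78 (S1pr1, SE 0.19) and edgeR adjusted p from 1.18e-07 to 8.45e-07.

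The beta 1 chain and its alpha 4 partner were abundant in erythroid-gated cells too. Itga4 averaged 282 ± 75.7 CPM in stem-gated and 288 ± 47.7 CPM in erythroid-gated cells, and Itgb1 229 ± 31.7 CPM against 245 ± 33.9 CPM. edgeR with TMM factors called both lower in stem-gated cells (log2 fold changes -0.59 and -0.63, adjusted p of 9.42e-05 and 5.08e-05), and with library totals it called neither (-0.06 and -0.10, adjusted p of 0.558 and 0.302). That change of scale moves the median gene from 0.11 to 0.63 on the log2 scale. It also brings Cd44 (147 against 84.3 CPM) past the threshold, at 0.75. The members called numbered 5 higher and 2 lower, where the same test called 78.6% of all genes, 41.3% higher and 37.2% lower. Cxcr4 averaged 9.63 CPM in stem-gated and 6.90 CPM in erythroid-gated cells and was not called (log2 fold change 0.30, SE 0.39).

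Against granulocyte-progenitor-gated cells, S1pr1 was higher and Cxcr4 lower in stem-gated cells. S1pr1 averaged 21.3 ± 9.91 CPM in stem-gated and 2.97 ± 3.03 CPM in granulocyte-progenitor-gated cells (SD, n = 5), a log2 fold change of 2.49 (SE 0.23, edgeR adjusted p = 2.06e-07), with every stem-gated sum above every other sum, as for 32.1% of all genes. Cxcr4 averaged 9.63 ± 9.10 against 26.9 ± 33.5 CPM and was lower in 5 of 5 libraries, by 1.66 on the log2 scale (SE 0.18, edgeR adjusted p = 1.48e-06). In granulocyte-progenitor-gated cells it stood at 86.2 CPM in tube 2 (23 cells), against 7.62 to 11.3 CPM in the 3 pools. Selplg was the third member called, at -0.41 (SE 0.12, edgeR adjusted p = 0.00770), and it stood at 0.00 with library totals. The test called 64.1% of all genes, 33.3% higher and 30.8% lower. With library totals 5 members were higher and 1 lower, since the median gene moved from 0.06 to 0.47 on the log2 scale. In these 5 libraries 87.1% to 100% of granulocyte-progenitor-gated cells showed 2 or more mitotic genes, at median depths of 12157 to 40353 UMIs against 5608.5 to 20027 UMIs in stem-gated cells, and the shares were not thinned. Without such cells E19 and tube 2 dropped out for too few cells left, so that fit held the 3 pools only. It differs from the main fit in libraries as well as cells, and the part of each was not tested. In it S1pr1 was not called (log2 fold change 0.87, edgeR adjusted p = 0.102). Of the 8 members tested in that fit, 2 were called higher and 0 lower, so neither Cxcr4 nor Selplg was called lower. That fit called 1735 of 8705 genes higher and 1942 lower.

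**Figure D2:**
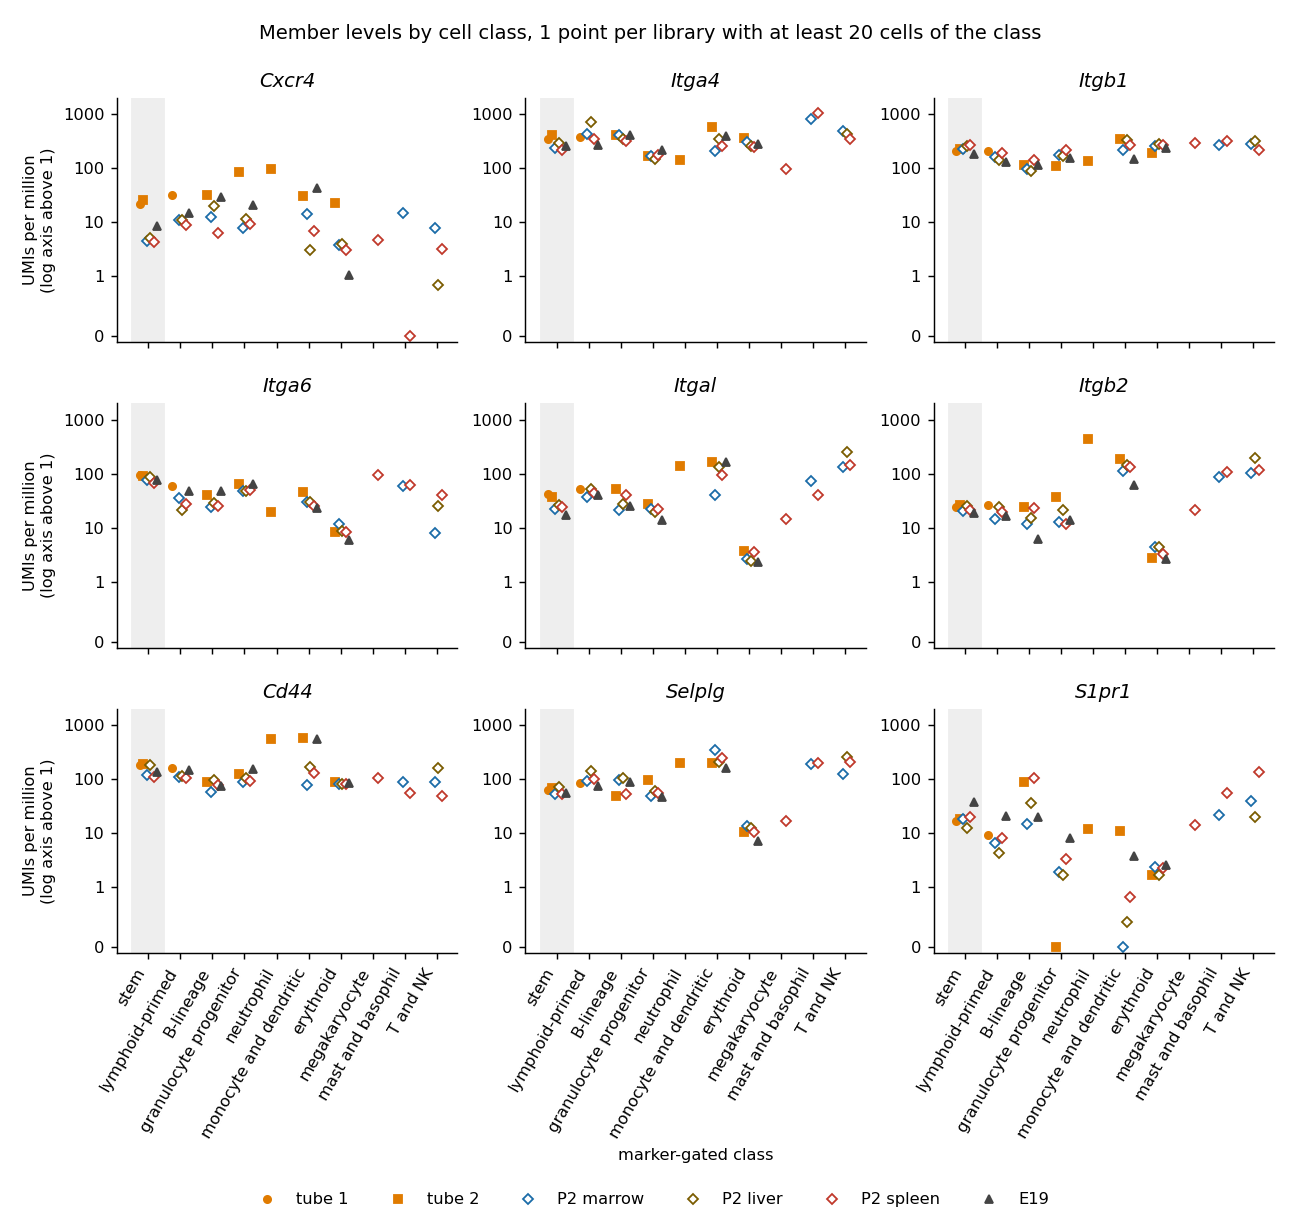
Levels of the 9 genes (CPM, log axis above 1) in 10 marker-gated classes, with 1 point per library holding at least 20 cells of the class and the stem-gated class shaded. S1pr1 is low in granulocyte-progenitor-gated and erythroid-gated cells (0 to 7.96) and spread widely in B-lineage-gated cells (14.6 to 105), and the tube 2 points of Cxcr4 lie above the pool points in the classes they share.

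**Figure D3:**
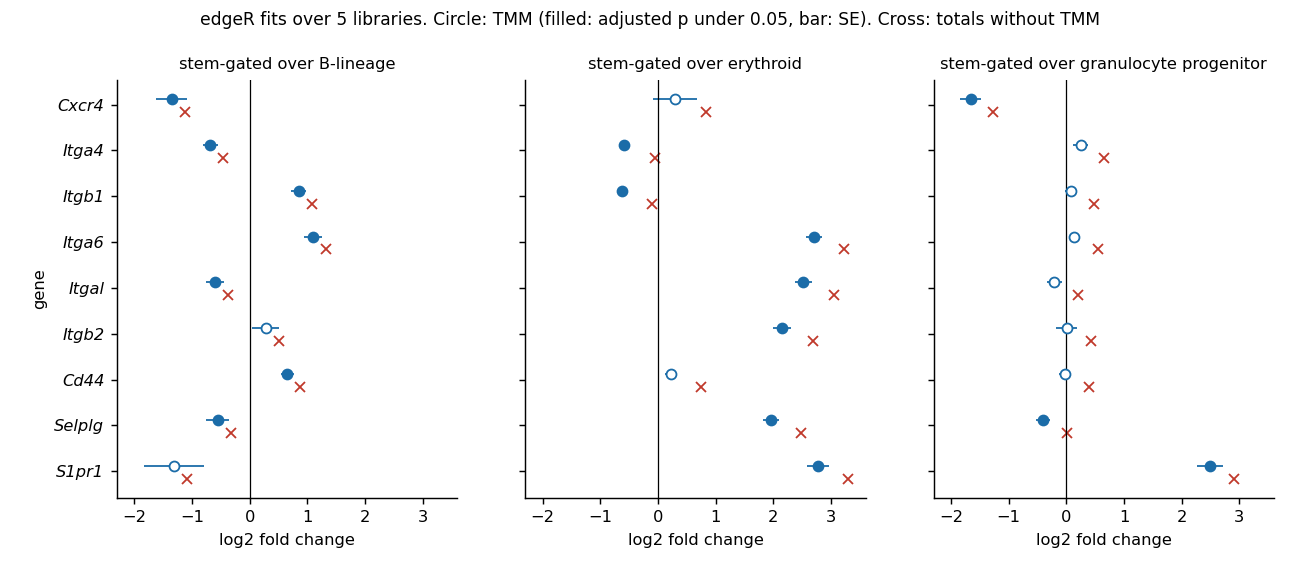
Log2 fold changes of stem-gated cells over B-lineage-gated, erythroid-gated and granulocyte-progenitor-gated cells from edgeR over 5 libraries. Circles use TMM factors with bars for the SE and are filled at an adjusted p under 0.05, and crosses use library totals. The crosses lie to the right of the circles in every panel, and the circles of Itga4 and Itgb1 against erythroid-gated cells (-0.59 and -0.63) move to -0.06 and -0.10.

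The other genes of the pathway gave 30 higher and 24 lower of 86 tested against B-lineage-gated cells (median log2 fold change -0.06, beside 0.02 over all genes). Against erythroid-gated cells 51 were higher and 20 lower of 91 (1.06, beside 0.11), and against granulocyte-progenitor-gated cells 40 were higher and 32 lower of 94 (-0.00, beside 0.06). Esam and Robo4, adhesion and guidance receptors shared by endothelial and stem cells, averaged 36.3 and 19.1 CPM in stem-gated cells. In the other 3 classes Esam averaged 0.732 to 1.53 CPM and Robo4 0.405 to 0.936 CPM. Endothelial markers summed to 91.3 to 136 CPM in the stem-gated sums of marrow, liver, spleen and E19, with 0 to 3 of the 6 at 0 UMIs, and their part in these values was not tested. Cxcr5 and Ccr7, chemokine receptors that place lymphocytes in follicles and T zones, averaged 1.12 and 0.865 CPM in stem-gated and 31.3 and 28.4 CPM in B-lineage-gated cells. Sphk1, a kinase that makes sphingosine-1-phosphate, averaged 0.244 CPM in stem-gated and 65.2 CPM in erythroid-gated cells.

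Most stem-gated cells had a UMI for at least 1 of the 9 genes. In cells thinned to 5000 UMIs, the median cell had a UMI for 2 or 3 of the 9 genes and 0.547% to 3.40% of cells for none. Itga4 was seen in 61.1% to 81.8% of cells across the 6 libraries, Itgb1 in 57.5% to 72.1%, Cd44 in 41.6% to 58.0%, Itga6 in 25.7% to 35.5% and Cxcr4 in 1.92% to 9.85%. Erythroid-gated cells thinned the same way gave 69.1% to 83.5% for Itga4, 54.5% to 73.2% for Itgb1, 27.3% to 33.8% for Cd44, 0.826% to 5.80% for Itga6 and 0.481% to 16.5% for Cxcr4. For Itga4, Itgb1 and Cxcr4 the 2 ranges overlap, so they do not tell the 2 classes apart. Itga4 and Itgb1 were abundant in both classes, and the shares alone are not read as cells expressing the gene. Cells with UMIs for both Itga4 and Itgb1 made up 38.6% to 55.1%, close to the product of the single shares (37.6% to 55.4%). Itgal and Itgb2, the LFA-1 chains, were seen together in 0.854% to 2.88% of cells, beside products of 0.732% to 2.07%. Between 17 and 2005 stem-gated cells a library were too shallow to thin.

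In B-lineage-gated cells the receptor that varied most between the P2 organs was S1pr1. It stood at 14.6 CPM (11.4 to 18.4) in pooled marrow, against 105 CPM (97.4 to 113) in pooled spleen, a ratio of 0.139 (0.107 to 0.177). In pooled liver it stood at 35.5 CPM (31.2 to 40.1), against marrow a ratio of 2.44 (1.87 to 3.22), the 1 member of 9 past 2-fold where 5.14% of all genes were. Pup 1 spleen gave 125 CPM (95.5 to 162) from 35 cells, an interval that holds the pooled spleen value, and E19 gave 20.1 CPM. Marrow was low, liver between and spleen high, with no overlap of the intervals.

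Cxcr4 and Selplg were higher in marrow than in spleen B-lineage-gated cells. Cxcr4 stood at 12.3 CPM in marrow, against 6.17 CPM in spleen (ratio 1.99, 1.32 to 3.03), and Selplg at 96.3 CPM against 52.3 CPM (ratio 1.84, 1.60 to 2.12). In liver they stood at 20.3 and 106 CPM, Cxcr4 above marrow (liver-to-marrow ratio 1.65, 1.21 to 2.26) and Selplg within counting error of it (1.11, 0.984 to 1.24). Itgal stood at 21.5 CPM in marrow, against 39.3 CPM in spleen, and Itgb2 at 11.9 CPM against 22.8 CPM (ratios 0.547 and 0.522). S1pr1 was the 1 member of 9 past 2-fold, where 15.1% of genes at 10 CPM or more were (7.29% in that direction). Each organ is 1 library of 1 pool of mice, so these values have no test.

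Of the 3 P2 organs, marrow was also the lowest for Klf2, Ccr7 and Cxcr5. Klf2 stood at 57.4 CPM in marrow and 370 CPM in spleen B-lineage-gated cells, with 209 CPM in liver. Cd69, which opposes S1PR1, stood at 97.8 CPM in marrow and 17.5 CPM in spleen. Ccr7 and Cxcr5 stood at 9.63 and 9.22 CPM in marrow, against 39.3 and 53.4 CPM in spleen, and Itgb7, a chain of the gut-homing integrin, at 3.07 CPM against 39.3 CPM. In the wider list, 2 of 51 genes were past 2-fold higher in marrow and 8 lower, with a median log2 ratio of -0.27 beside 0.14 over all such genes.

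The B-lineage-gated cells of the organs also differed in maturity markers. Vpreb1, Vpreb2, Vpreb3 and Igll1, all gate markers, are called surrogate light chain genes here, though Vpreb3 codes for no part of that chain. A UMI for any of them was seen in 82.4% of the cells in marrow, 42.7% in liver, 10.3% in spleen and 98.3% at E19. Cells with 2 or more mitotic genes were 73.8% in marrow, 45.1% in liver and 32.2% in spleen. Among cells with a surrogate light chain UMI, S1pr1 stood at 9.81 CPM (7.07 to 13.3) in marrow, 15.0 CPM (11.2 to 19.7) in liver and 19.8 CPM (12.1 to 30.6) in spleen. Among cells without one it stood at 48.6 CPM (32.6 to 69.8) in marrow, 54.1 CPM (46.9 to 62.2) in liver and 120 CPM (111 to 129) in spleen, and at 133 CPM (106 to 165) in tube 2. S1pr1 was higher in the cells without surrogate light chain UMIs in each organ, and within those cells spleen still lay above marrow and liver. In the pools, cells without such a UMI were shallower, with medians of 3013.5 to 3297 UMIs against 4521 to 5061.5 UMIs in those with one, while those of tube 2 had a median of 6511.5 UMIs.

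Klf2 and Cd69 split differently along the same divide. Klf2 stood at 20.3, 26.5 and 33.7 CPM in the cells with surrogate light chain UMIs of marrow, liver and spleen, and at 324, 375 and 429 CPM in those without. Cd69 stood at 106 and 80.4 CPM in the cells with such UMIs of marrow and liver, against 12.9 CPM in those of spleen, and at 36.9, 59.8 and 18.3 CPM in the cells without. Klf2 was higher without surrogate light chain UMIs in each organ, and Cd69 was low in both kinds of spleen cell. Cxcr4 stood at 20.1 and 20.2 CPM in marrow and liver cells without surrogate light chain UMIs, against 4.65 CPM (3.07 to 6.77) in spleen cells without them. In the cells with such UMIs it stood at 11.2 CPM (8.26 to 14.9) in marrow, 20.3 CPM (15.8 to 25.7) in liver and 14.9 CPM (8.32 to 24.5) in spleen, so marrow was above spleen only in the cells without.

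**Figure D4:**
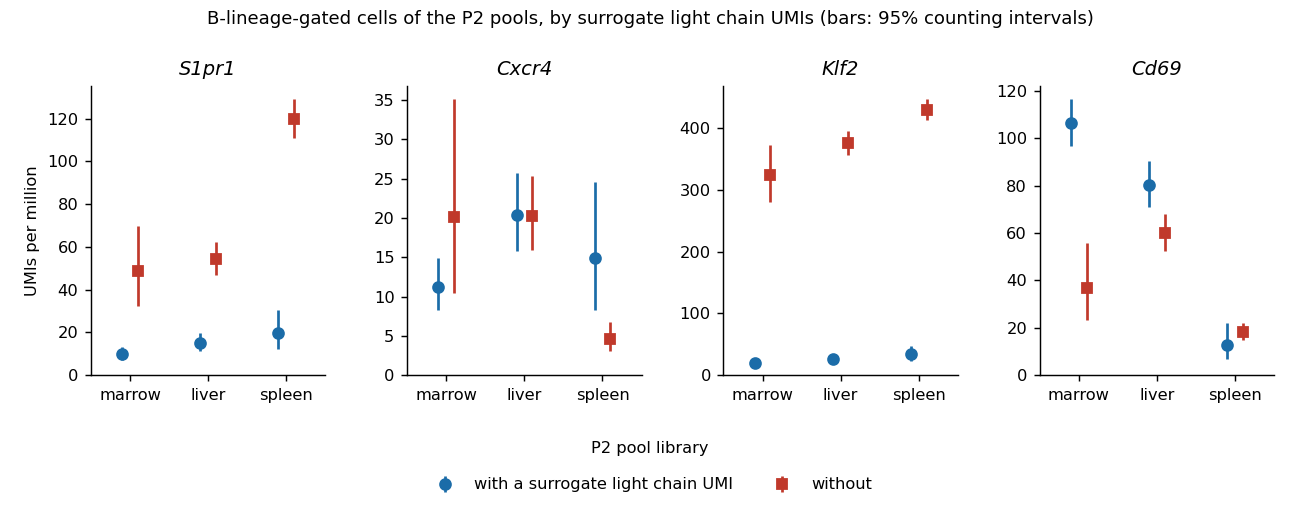
Levels of S1pr1, Cxcr4, Klf2 and Cd69 (CPM) in B-lineage-gated cells of pooled P2 marrow, liver and spleen. Cells are split by a UMI for Vpreb1, Vpreb2, Vpreb3 or Igll1. Points are the levels and bars 95% counting intervals. S1pr1 without such a UMI stands at 48.6, 54.1 and 120, and Cd69 with one at 106, 80.4 and 12.9.

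In T and NK-gated cells S1pr1 was likewise lower in liver than in spleen. S1pr1 stood at 19.6 CPM (12.4 to 29.4) in liver, against 138 CPM (120 to 158) in spleen, a ratio of 0.142 (0.0881 to 0.219). Cd44 stood at 159 CPM in liver, against 49.2 CPM in spleen (ratio 3.24, 2.47 to 4.28). The LFA-1 chains Itgal and Itgb2 were higher in liver with ratios of 1.76 (1.47 to 2.10) and 1.71 (1.40 to 2.10). S1pr1 and Cd44 were the 2 members of 8 past 2-fold, where 14.7% of genes at 10 CPM or more were.

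Examples from the wider list in T and NK-gated cells, named after their values were seen, follow. Itga1, the alpha 1 chain of a collagen receptor found on liver-resident lymphocytes, stood at 525 CPM in liver, against 25.2 CPM in spleen, and Rgs1, which dampens chemokine receptor signals, at 307 CPM against 12.9 CPM. Klf2 stood at 64.7 CPM in liver, against 318 CPM in spleen, and Ccr7 at 9.37 CPM against 88.0 CPM. Of 61 wider-list genes, 12 were past 2-fold higher in liver and 6 lower (median log2 ratio 0.27, beside 0.07 over all such genes). The gate joins T and NK cells, whose mix was not compared between organs.

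In erythroid-gated and granulocyte-progenitor-gated cells no member at 10 CPM or more passed 2-fold between the P2 organs compared. Between marrow and spleen 0 of 5 members in erythroid-gated cells and 0 of 7 in granulocyte-progenitor-gated cells passed 2-fold, where 0.476% and 0.477% of all genes did. Between liver and marrow 0 of 5 and 0 of 8 did, where 0.829% and 1.75% of all genes did. Among the members counted, the ratios farthest from 1 were in granulocyte-progenitor-gated cells of liver over marrow, where Itgb2 stood at 20.7 CPM against 12.7 CPM (ratio 1.63, 1.39 to 1.92) and Cxcr4 at 11.3 CPM against 7.62 CPM (ratio 1.48, 1.20 to 1.83). The order of classes for Selplg placed monocyte and dendritic cells at 210 to 345 CPM in the pools, above stem-gated cells at 52.3 to 72.0 CPM. Neutrophil-gated cells of tube 2 (262 cells) gave the highest Itgb2 (430 CPM) and Cxcr4 (98.1 CPM) of any class with at least 20 cells.

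Over 47 sums of a class in a library with at least 100000 UMIs, the genes whose log levels ran most like a member's were found among 9171 genes. Dock2 was closest to Itgal (Pearson r 0.92), St8sia4 to Selplg (0.92), Irak4 to Itgb2 (0.89), Gramd4 to Itga4 (0.83), Fli1 to Itga6 (0.83), Rsrc2 to S1pr1 (0.82) and Lyz2 to Cd44 (0.79). The closest for Itgb1 was Osbpl3 (0.71) and for Cxcr4 Heatr6 (0.67). The sums share libraries and cell classes, so these values describe the pattern and carry no p.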

How the data were processed

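UMI counts per gene and cell barcode were deposited by the authors as 6 matrices, with 4 hashtags counted in the tubes. They were made with Cell Ranger 7.0.0 on mm10, per the submitters' processing notes, while the file headers give 7.0.0 for the pools, 7.1.0 for E19 and 8.0.1 for the tubes. Kept cells were placed in classes by marker lists, and counts were summed per class and source. Sums were tested with edgeR 4.0.16 (quasi-likelihood, TMM, filterByExpr, Benjamini-Hochberg threshold 0.05), after a check on simulated data, with DESeq2 1.42.0 as an alternative. In the check, the marrow and spleen fit recovered 92 of 100 planted 2-fold changes and 100 of 100 planted 4-fold changes, with 14 false calls. The fit against B-lineage-gated cells recovered 61 and 97 of 100, with 13 false calls, so some 2-fold differences can go uncalled there. Changes were planted only in genes above a minimum mean count, and sums were drawn independently, with no batch difference and no shared animals. The recovery therefore does not carry over to genes with low counts or to sums that share animals. With 1 library a group, CPM values and ratios carry exact 95% intervals, genes with at least 10 CPM in either library are counted, and no test was made. Doublets stayed in, except in an alternative that removed the highest Scrublet scores. Marrow and spleen sums of a source come from the same animals, and their deviations from the tissue means correlated at 0.74, 0.60 and 0.56. Batch was not removed from these deviations, so they also hold the difference between pool and pups. All 9 members are named, and of the wider list examples of those called or past 2-fold, while some genes are not reported here. Likeness used log2(CPM + 1). The members and lists were chosen with earlier results of these data known, and gate thresholds were set after seeing the data. The tdTomato-positive stem-gated cells (2 to 17 a source and tissue) were not compared.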

Additional observations from a re-analysis of the deposited data

Results flagged for a closer look

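Several stem-to-class CPM ratios lay on opposite sides of 1 in different P2 organs as point values without intervals, and those of Selplg in spleen and Itgal in marrow lay close to 1. Each rests on 1 library an organ, and no difference between organs was tested. The stem-gated to erythroid-gated CPM ratio of Itga4 was 0.776 in marrow, 1.14 in liver and 0.898 in spleen. The stem-gated to B-lineage-gated ratio of S1pr1 was 1.25 in marrow, 0.348 in liver and 0.185 in spleen. For Selplg that ratio was 0.548 in marrow, 0.676 in liver and 1.00 in spleen. For Itgal it was 1.04 in marrow and 0.617 in spleen, and for Itgb2 1.74 in marrow and 0.921 in spleen.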

How the results depend on the processing

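Of the counts of members under the alternatives, 65 stayed within 1.5 times and 4 did not. Against granulocyte-progenitor-gated cells 5 members were called with DESeq2 size factors and 6 with library totals, against 3. Between liver and marrow 1 member passed at 1.5-fold and 1 without mitotic cells, against 0. The S1pr1 log2 ratio of P2 marrow to E19 stayed between -1.13 and -1.02. With the animal source as a replicate block, the marrow and spleen comparison called 13 genes higher and 3 lower, against 0, and still 0 members. Without pup 1 it called 25 genes higher and 31 lower, without pup 2 24 and 91, and with no filter 39 and 54. Without the library block, Cxcr4 lost its call against B-lineage-gated and granulocyte-progenitor-gated cells (edgeR adjusted p of 0.113 and 0.0805). The mitotic alternative was not run against erythroid-gated cells. For too few cells left, it also dropped E19 against B-lineage-gated cells, and E19 and tube 2 against granulocyte-progenitor-gated cells.

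Log2 fold changes of members changed sign in 28 cases, and the cause was not tested. For marrow over spleen, Itgb2 was -0.19 and Selplg -0.080 without mitotic cells. Itgb2 was -0.047 with the wider stem gate, -0.0388 with background-subtracted hashtags, -0.0377 with these and the replicate block and -0.031 without pup 1. Cxcr4 was -0.015 without pup 1 and S1pr1 -0.22 without pup 2. Without mitotic cells Itgb2 was -0.36 against B-lineage-gated cells, and without E19 Cxcr4 was -0.25 against erythroid-gated cells. Against granulocyte-progenitor-gated cells, Cd44 was 0.066 with DESeq2 size factors, 0.065 in DESeq2, 0.49 without mitotic cells, 0.39 with library totals, 0.014 without the library block, 0.019 without spleen and 0.071 without E19. Itgb2 was -0.011 with no filter, -0.0044 with a stricter gate, -0.082 without the library block, -0.10 without marrow, -0.17 without spleen and -0.0061 without E19. Without mitotic cells Itga4 was -0.040 and Selplg 0.0086. With library totals Itgal was 0.20 and Selplg 0.0030, and without tube 2 Itgb1 was -0.024.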
